A study of Mus musculus with 2 samples.

Results

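Telomerase and shelterin genes are the 10 protein-coding genes Tert, Wrap53, Rtel1, Terf1, Terf2, Terf2ip, Tinf2, Acd, Pot1a and Pot1b. They were taken by symbol, not by level, from a table of 15127 listed protein-coding genes, and all 10 were listed. The counts came from poly(A) RNA of pSM44 cells, female mouse embryonic stem cells of 129 and castaneus parentage whose Xist gene, on the 129 allele, is driven by a tetracycline-inducible promoter. All cells were of 1 group, grown in serum-free 2i/LIF medium and given doxycycline at 2 μg/mL for 24 h. The group had 2 libraries but the table had 1 column of counts, with 10017978 counts in total, so each gene has 1 value with no replicate error. Nothing in the sources used here says whether the column holds 1 library or both. The intervals printed describe counting error alone: the libraries were amplified and the labels name no molecular identifiers, so reads may be copies of one molecule. No untreated cells were analysed here, so no value measures a response to doxycycline or Xist.

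Telomeres are repeats at chromosome ends that shorten with each round of DNA replication. Telomerase adds repeats back with a reverse transcriptase, encoded by Tert, and an RNA template. Shelterin is the protein complex that coats the repeats, hides the ends from DNA repair and admits telomerase. Mouse embryonic stem cells are known to keep telomerase active and their telomeres long. The telomerase RNA is not a protein-coding gene and was not analysed here.

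All 10 genes were at a CPM (the count divided by the table's total and scaled by 1000000) of 1 or more, a level reached by 80.1% of listed genes and 54.9% of all annotated protein-coding genes. Their counts ran from 97 for Pot1b to 842 for Wrap53, with a median of 537.5, against a median of 183 over all listed genes. The median CPM was 53.7 for the 10 genes and 18.3 for all listed genes, a difference of medians of 1.50 on the log2(CPM + 1) scale. With the background kept to genes at CPM 1 or more, that difference was 0.78. Pot1b was the 1 member under the median CPM of all listed genes. By CPM the 10 genes lay between percentile 40.5 and percentile 81.35 of listed genes.

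**Figure D1:**
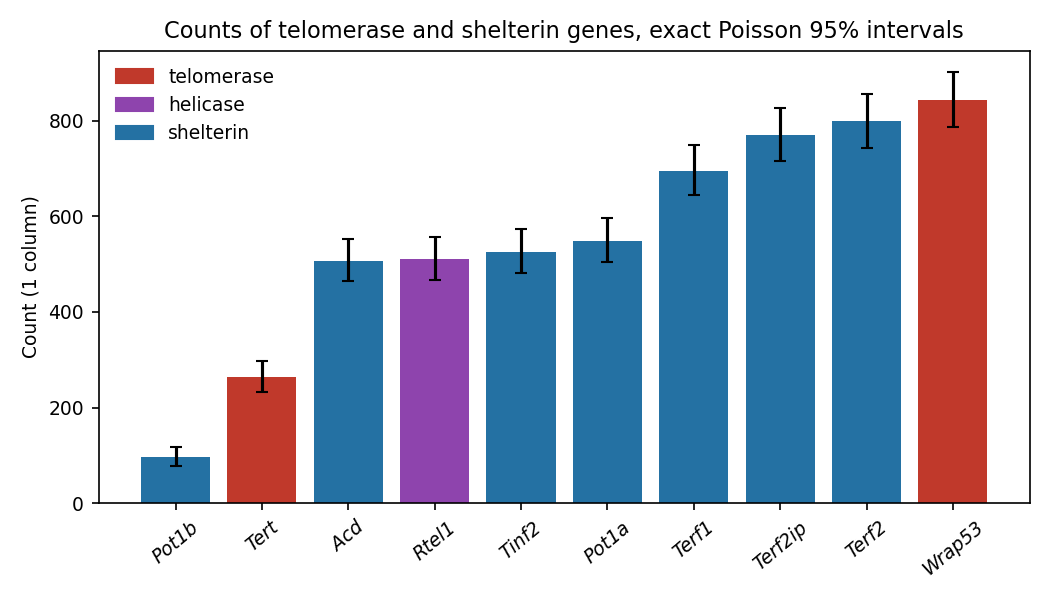
Counts of the 10 genes (vertical axis, counts in the single column; bars coloured by role), with exact Poisson 95% intervals as error bars. Pot1b, with 97 counts, and Tert, with 264, stand below the other 8 genes, which lie between 507 and 842.

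By CPM, each marker of the labelled cell type was above every listed marker of other types. All 8 pluripotency markers were at CPM 1 or more, from 252 CPM for Tdgf1 to 4716 CPM for Dppa5a. Of 7 fibroblast markers, which feeder cells would carry, 3 were listed, the highest being Thy1 at 26.7 CPM. Thy1 was close to Tert by CPM, but per kilobase of exon it was at 8.90 CPM and Tert at 4.60. The collagen gene Col3a1, Dcn, Lum and Postn were not listed. Endoderm markers reached 12.7 CPM at most, mesoderm markers 12.1 CPM and neural markers 6.19 CPM, with Sox1, Tubb3 and Neurod1 not listed and lying wholly inside other genes.

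Tert, the catalytic reverse transcriptase, was the lowest gene but Pot1b. It had 264 counts (exact Poisson 95% interval 233 to 298), or 26.4 CPM. The gene lies on chromosome 13 from 73626911 to 73649843 on the plus strand (GRCm38, GENCODE M21), and no other annotated gene overlaps it. Per kilobase of exon, the measure used here to set levels of different genes side by side, Tert was at 4.60 CPM, percentile 53.4 of the listed genes that had a length. Its level by this measure was therefore close to the median of 3.80 over those genes. The measure takes all counts as exonic, though the features counted are not given.

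Wrap53 encodes TCAB1, the protein that binds telomerase RNA and directs telomerase to Cajal bodies and telomeres. It had 842 counts (786 to 901), or 84.05 CPM, the most of the 10 genes, on chromosome 11 from 69561758 to 69580255. Per kilobase of exon it was at 40.8 CPM, percentile 90.7. Tert per kilobase of exon stood at 0.113 of Wrap53 (exact 95% interval of counting error 0.0979 to 0.130), and at 0.149 per kilobase of coding sequence. Tert was lower than Wrap53 under every length used and in raw counts.

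Most genes in a list for the telomerase particle and its assembly stood above Tert, with 12 of 13 higher per kilobase of exon. Of these genes for the particle and its assembly, all 13 reached CPM 1, and their median was 47.6 CPM per kilobase of exon. The highest were Nhp2 at 256, Nop10 at 148 and Dkc1 at 118 CPM per kilobase, which encode proteins of the H/ACA core that binds telomerase RNA and also many nucleolar guide RNAs. The lowest was Tep1, a telomerase-associated protein gene, at 1.67 CPM per kilobase. Dkc1 lies on chromosome X, and the part of Xist in its level and ratios was not tested. Dkc1, encoding dyskerin, had 4864 counts, and Tert stood at 0.0390 of it per kilobase of exon (0.0344 to 0.0442) and at 0.0246 per kilobase of coding sequence. Wrap53 stood at 0.346 of Dkc1 per kilobase of exon (0.321 to 0.372), at 0.257 per kilobase of the longest protein-coding transcript and at 0.166 per kilobase of coding sequence.

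The promoter of Tert is shown because telomerase activity is known to depend on transcription of this gene. It is the RefSeq window (GRCm38.p6, chr13:73626661-73626960, plus strand, 250 bases before the start and 50 after it), with 2 GC boxes in capitals.
Tert: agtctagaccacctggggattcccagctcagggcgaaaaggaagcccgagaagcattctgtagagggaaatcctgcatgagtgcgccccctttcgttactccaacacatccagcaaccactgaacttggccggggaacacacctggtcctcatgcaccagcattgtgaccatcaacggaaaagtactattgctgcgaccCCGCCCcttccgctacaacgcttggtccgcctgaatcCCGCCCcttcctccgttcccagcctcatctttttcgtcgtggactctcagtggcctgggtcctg
The GC box searched was CCGCCC on either strand, the core of the site that Sp-family factors bind, and its matches begin 51 and 14 bases before the start. A GC box was in 35.7% of all 32851 promoter windows of this length and in at least 1 window of 6 of the 9 member genes found in the RefSeq table. No E-box CACGTG, the site of Myc and Max, was in the Tert window. Among the members an E-box was in the upstream window of Wrap53 only, against 7.15% of all windows.
Wrap53 (chr11:69580201-69580500, minus strand, E-box in capitals): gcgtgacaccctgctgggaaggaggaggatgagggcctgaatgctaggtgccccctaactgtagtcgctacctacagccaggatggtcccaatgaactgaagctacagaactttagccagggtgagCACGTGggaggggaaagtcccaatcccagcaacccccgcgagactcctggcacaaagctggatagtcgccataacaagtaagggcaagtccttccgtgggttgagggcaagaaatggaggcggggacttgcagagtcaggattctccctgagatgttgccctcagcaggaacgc

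Factors known to act on Tert transcription differed widely in level. All 8 listed regulators reached CPM 1, and their median was 19.2 CPM per kilobase of exon. Klf4, a pluripotency factor known to bind the Tert promoter in mouse stem cells, was at 102 CPM per kilobase. Ctnnb1, encoding beta-catenin, was at 64.2, with 67.8% of its exonic bases under the span of another gene. Mycn was at 52.7 with 1738 counts, whereas Myc was lowest at 0.514 with 14 counts. These genes encode related factors that bind the E-box with Max, and the Max gene had 600 counts.

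Terf1 and Terf2, the shelterin proteins that bind double-stranded repeats, were at similar levels. Terf1, on chromosome 1 from 15805646 to 15844052, had 695 counts (644 to 749), or 69.4 CPM. Terf2, on chromosome 8 from 107069400 to 107096547, had 798 counts (744 to 855), or 79.7 CPM. Neither gene's exons lie under another gene. Per kilobase of exon Terf1 was at 15.1 CPM and Terf2 at 17.3, a ratio of 0.869 (0.784 to 0.963). The order turned with the length: the ratio was 1.12 per kilobase of coding sequence (1.01 to 1.24) and 1.02 per kilobase of the longest protein-coding transcript (0.924 to 1.14). No order of the paralogs is given for that reason. Their coding sequences were 58.3% identical over 1244 aligned bases, with a longest shared run of 17 bases, and they shared no stretch of 50 bases.

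Terf2ip, which encodes RAP1, the partner of Terf2, followed closely. It had 769 counts (716 to 825), or 76.8 CPM, on chromosome 8 from 112011398 to 112020528. At 15.5 CPM per kilobase of exon it stood at 0.893 of Terf2 (0.808 to 0.988). That ratio was 1.33 per kilobase of coding sequence and 0.722 per kilobase of the longest protein-coding transcript, so no order of these genes is given. Terf2, Terf2ip and Acd all lie on chromosome 8, where 616 listed genes at CPM 1 or more had a median CPM of 50.1, against 30.3 for those of other autosomes; its part in their levels was not tested. The gene Gm6793, on the opposite strand and not listed in the table, covers 2.18% of the exonic bases of Terf2ip.

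Tinf2 and Acd encode TIN2 and TPP1, which join the double-strand binders to the POT1 proteins, and TPP1 also recruits telomerase. Tinf2 had 526 counts (482 to 573), or 52.5 CPM, on chromosome 14 from 55674689 to 55681820. Acd had 507 counts (464 to 553), or 50.6 CPM, on chromosome 8 from 105695860 to 105701102. Per kilobase of exon Acd was at 14.0 CPM and Tinf2 at 10.6. Both genes run into a neighbour on the opposite strand. Gmpr2, with 55 counts, spans 51.0% of the exonic bases of Tinf2, and Carmil2, with 206 counts, spans 52.1% of those of Acd. Reads were not separated by position. The same counts were also divided by the remaining exonic bases alone, as if no read came from the stretches under those neighbours. That gave 29.1 CPM per kilobase for Acd and 21.7 for Tinf2, upper limits with regard to the overlap only. Per kilobase of coding sequence Acd was at 40.6 CPM and Tinf2 at 41.8. By exon, coding and transcript lengths both genes were below Terf2. With all bases under other genes left out of the length, both were above Terf2 at 17.3 CPM per kilobase. With only shared exons left out, Acd at 20.9 was above Terf2 and Tinf2 at 15.5 was below it. The strand setting is not given in the labels or the file, and the part of these overlaps in the counts was not tested.

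**Figure D2:**
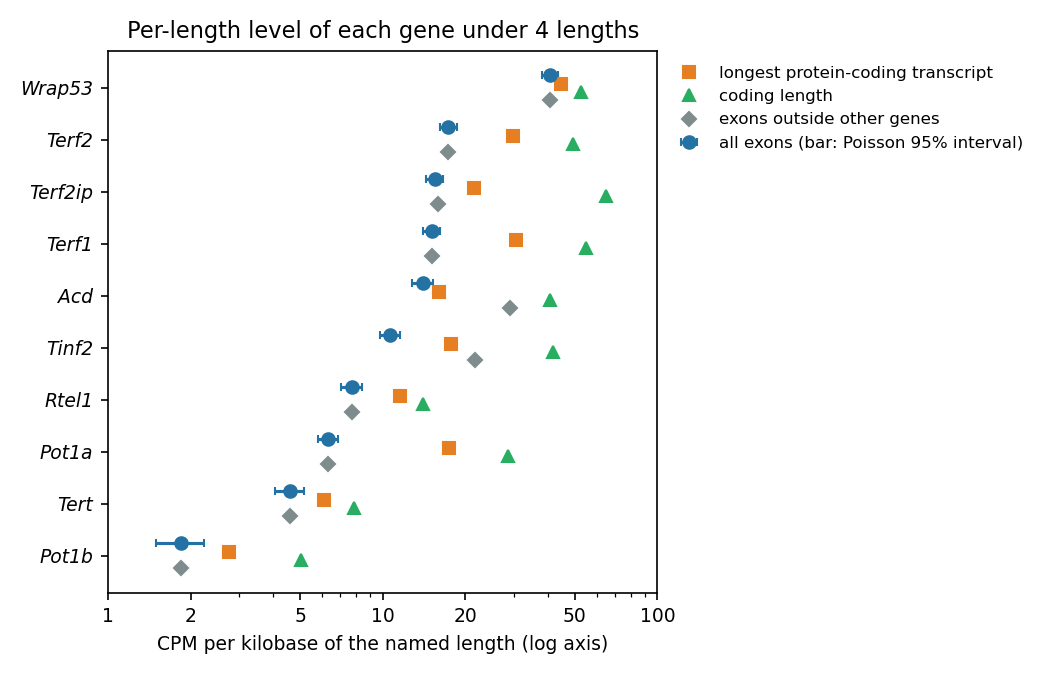
CPM per kilobase (horizontal log axis) of each gene under 4 lengths, ordered by the value over all annotated exons, whose error bars are exact Poisson 95% intervals. Pot1b is lowest and Tert next under each length, while Acd and Tinf2 move when exons under other genes are left out of the length.

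Pot1a and Pot1b bind the single-stranded end of the telomere. Rodents have both genes where most mammals have one, and in mouse Pot1a is known to hold back the damage response at chromosome ends and Pot1b to limit trimming of the strand opposite the overhang. Pot1a, on chromosome 6 from 25743737 to 25809246, had 549 counts (504 to 597), or 54.8 CPM. Pot1b, on chromosome 17 from 55651951 to 55712628, had 97 counts (78.7 to 118), or 9.68 CPM. Pot1a was the higher of the pair under every length. Per kilobase of exon the values were 6.32 CPM for Pot1a and 1.84 for Pot1b, a ratio of 3.44 (2.77 to 4.31). Both have a coding sequence of 1920 bases without the stop codon, and per kilobase of it the ratio was 5.66 (4.55 to 7.10). Per kilobase of the longest protein-coding transcript it was 6.33 (5.09 to 7.94).

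The likeness of the pair bears on whether reads could be told apart, and the stretch around their longest shared run is shown for that reason. Their coding sequences were 78.85% identical over 1920 aligned bases. In the lines here, bases 429 to 548 of each coding sequence (GENCODE M21 transcripts, reference strain), the 19 of 120 bases that differ are in capitals.
Pot1a: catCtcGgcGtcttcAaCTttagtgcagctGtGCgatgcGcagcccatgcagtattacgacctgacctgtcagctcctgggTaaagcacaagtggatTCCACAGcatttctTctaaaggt
Pot1b: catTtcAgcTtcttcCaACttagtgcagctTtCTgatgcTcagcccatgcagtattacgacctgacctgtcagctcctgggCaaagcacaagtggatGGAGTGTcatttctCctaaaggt
The longest shared run, inside this window, was 41 bases, and no stretch of 50 bases was common to any transcripts of the genes. Of 50-base stretches of Pot1b transcripts, 1.36% were found in transcripts of some other gene, and of Pot1a 0.186%. For Tinf2 and Acd the shares were 26.5% and 23.1%, mostly from the overlaps with Gmpr2 and Carmil2.

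The promoters of the pair differed in the motifs searched. They are shown because the genes encode proteins of like sequence at unlike levels. The Pot1a window (chr6:25809169-25809468, minus strand) held a GC box and the palindrome TGACGTCA, the cyclic-AMP response element that CREB and ATF factors bind. The Pot1b window (chr17:55712587-55712886, minus strand) held a GC box and CCGGAAG, the core of ETS-family sites.
Pot1a: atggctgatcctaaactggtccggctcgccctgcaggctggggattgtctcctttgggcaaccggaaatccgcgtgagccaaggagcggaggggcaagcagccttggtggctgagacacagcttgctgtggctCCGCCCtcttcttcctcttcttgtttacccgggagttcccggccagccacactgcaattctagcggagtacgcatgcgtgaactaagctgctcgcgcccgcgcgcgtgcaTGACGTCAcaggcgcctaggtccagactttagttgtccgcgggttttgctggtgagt
Pot1b: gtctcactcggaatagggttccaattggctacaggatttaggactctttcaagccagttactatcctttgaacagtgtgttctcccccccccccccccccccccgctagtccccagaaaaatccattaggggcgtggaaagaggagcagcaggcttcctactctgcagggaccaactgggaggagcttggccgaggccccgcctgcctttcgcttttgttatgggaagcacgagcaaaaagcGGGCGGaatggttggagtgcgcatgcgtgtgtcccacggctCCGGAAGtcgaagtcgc
The palindrome was in 1.79% of all windows and, among the members, in Pot1a and Tinf2. In Tinf2 (chr14:55681768-55682067, minus strand) it begins 56 bases before the start, ahead of CCGGAAG on the other strand.
Tinf2: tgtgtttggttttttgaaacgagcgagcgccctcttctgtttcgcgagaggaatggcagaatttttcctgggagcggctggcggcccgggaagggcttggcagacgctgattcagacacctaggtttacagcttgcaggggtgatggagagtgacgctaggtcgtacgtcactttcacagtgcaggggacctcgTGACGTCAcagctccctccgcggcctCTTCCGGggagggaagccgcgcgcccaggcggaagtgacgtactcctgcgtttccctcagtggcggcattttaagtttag
The ETS word was in 8.86% of all windows and in windows of 4 member genes (Pot1b, Rtel1, Terf2ip and Tinf2). The word TATAAA was in 13.6% of all windows and in none of a member. No match overlapped another in the member windows, and a match is a description of the letters only.

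**Figure D3:**
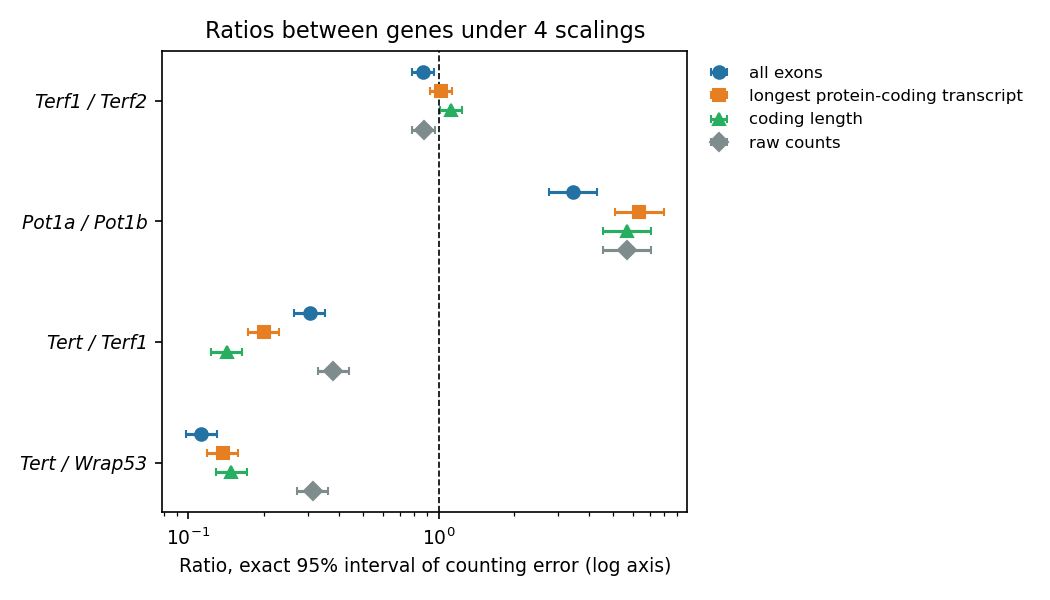
Ratios of 4 gene pairs (horizontal log axis) under 3 lengths and in raw counts, with exact 95% intervals of counting error; the dashed line marks 1. Terf1 over Terf2 lies on either side of 1, Pot1a over Pot1b lies between 3.44 and 6.33, and Tert lies below Terf1 and Wrap53 throughout.

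The 7 shelterin genes summed to 3941 counts or 393 CPM, and Pot1b was the lowest under every length. The highest, Terf2, was 9.43 times Pot1b per kilobase of exon, and without Pot1b the range was 2.74 times, from Pot1a to Terf2. The range of the other 6 genes was 1.57 times in raw counts, 1.91 times per kilobase of the longest protein-coding transcript and 2.28 times per kilobase of coding sequence. It was 3.31 times with exons shared with other genes left out of the length and 4.61 times with all bases under other genes left out. Tert per kilobase of exon stood at 0.305 of Terf1 (0.264 to 0.352), at 0.200 per kilobase of the longest protein-coding transcript and at 0.143 per kilobase of coding sequence. Pot1b stood at 0.122 of Terf1 (0.0977 to 0.151).

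Rtel1 encodes a helicase that unwinds telomeric loops and G-quadruplex structures and is no shelterin subunit. It had 511 counts (468 to 557), or 51.01 CPM, on chromosome 2 from 181319739 to 181356616. At 7.71 CPM per kilobase of exon it lay between Tinf2 and Pot1a, at 0.512 of Terf1 (0.456 to 0.575), a ratio that was 0.379 per kilobase of the longest protein-coding transcript and 0.256 per kilobase of coding sequence. M21 gives the gene 21 transcripts, 10 of them protein-coding, and no other gene overlaps its exons.

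Per kilobase of exon the order from high to low was Wrap53, Terf2, Terf2ip, Terf1, Acd, Tinf2, Rtel1, Pot1a, Tert and Pot1b. The gap below Wrap53 was 2.35 times (2.13 to 2.59), and the gap above Pot1b was 2.50 times (1.98 to 3.19). Terf2ip and Terf1 did not differ beyond counting error (ratio 1.03, 0.927 to 1.14), nor did Terf1 and Acd (1.08, 0.960 to 1.21). Between the other neighbours the interval lay above 1, but over 5 lengths and raw counts all but the lowest 2 places changed. Wrap53 held places 1 to 3, coming after Terf2ip and Terf1 per kilobase of coding sequence, at 52.7 CPM against 65.1 and 54.9. Acd held places 2 to 8, Terf2ip 1 to 5 and Terf1 2 to 6. Tert held place 9 and Pot1b place 10 on each of these scales. Gene span, from the first to the last base of a gene, was not among them. Places by span were not computed and may differ, Pot1a having a longer span than Tert.

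**Figure D4:**
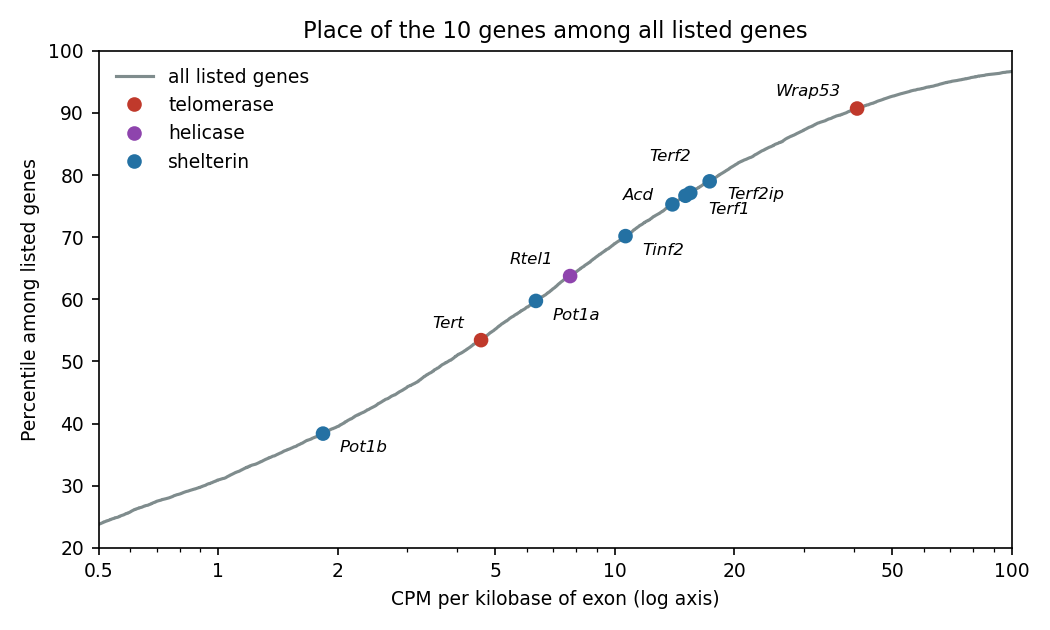
Percentile among listed genes (vertical axis) against CPM per kilobase of exon (horizontal log axis), with the grey curve for all listed genes that had a length and points for the 10 genes by role. Wrap53 is at percentile 90.7, Terf2, Terf2ip, Terf1, Acd and Tinf2 lie between 70.2 and 79.0, and Pot1b is at 38.4.

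Of 64 other telomere genes in 7 lists, 61 were listed and 55 were at CPM 1 or more. That is 85.9% of the 64 genes, against 54.9% of all annotated protein-coding genes, and 90.2% of the 61 listed, against 80.1% of all listed genes. The 9 genes under CPM 1 or not listed were all in the 2-cell and meiotic lists. The CST complex and DNA polymerase alpha-primase together fill in the strand that telomerase does not make. All 7 genes of the list for both were at CPM 1 or more. Their median was 11.3 CPM per kilobase of exon, near the 12.3 of the telomerase and shelterin genes. The CST subunit gene Ctc1 led the list at 27.3, then the primase gene Prim1 at 17.5 and Pola1 at 11.4. Pola1 lies on chromosome X, and the part of Xist in its level was not tested. The CST subunit genes Stn1 and Ten1 were at 5.01 and 2.42 CPM per kilobase, Ten1 being lowest of the list. The list of genes for proteins that act with shelterin or at chromosome ends had all 15 at CPM 1 or more and a median of 8.96. Xrcc5, encoding Ku80, was at 75.3, Rif1 at 33.6 and Tnks2, encoding a tankyrase that modifies TRF1, the product of Terf1, in human cells, at 29.98 CPM per kilobase. The lowest was the nuclease gene Dclre1b, known as Apollo, at 0.499, with 58.0% of its exonic bases under another gene. In the same list Xrcc6 and Fen1 were at 5.17 and 2.47, with 84.4% and 86.5% of their exonic bases under other genes. The part of overlap in these levels was not tested.

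Chromatin and repeat-binding proteins had all 8 genes at CPM 1 or more and a median of 4.49 CPM per kilobase. Daxx and Atrx, which together place the histone variant H3.3 at telomeres, were at 23.8 and 12.0. Zbtb10 was at 7.57, and the nuclear receptor gene Nr2c2 was lowest at 1.02. Atrx lies on chromosome X, and the part of Xist in its level was not tested. Genes of the 2-cell-like state, a rare state of embryonic stem cells in which Zscan4 is known to lengthen telomeres, gave 0 of 7 at CPM 1 or more. Zscan4d had 5 counts, Zscan4c 3, Zscan4f 2 and Tcstv3 1, while Zscan4a and Tcstv1 were not listed. Members of this family have near-identical copies, so their counts are uncertain. In RNA from bulk cells, fewer cells of a state and less RNA per cell cannot be told apart. Genes that tie telomeres to the nuclear envelope in meiosis had 4 of 6 at CPM 1 or more. Sun1, which has roles in other cells too, was at 25.4 CPM per kilobase, Ccdc155 at 2.07 and Terb2 at 1.09. Terb1 was lowest at 0.346 with 13 counts, and Spdya, wholly inside another gene, was not listed.

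**Figure D5:**
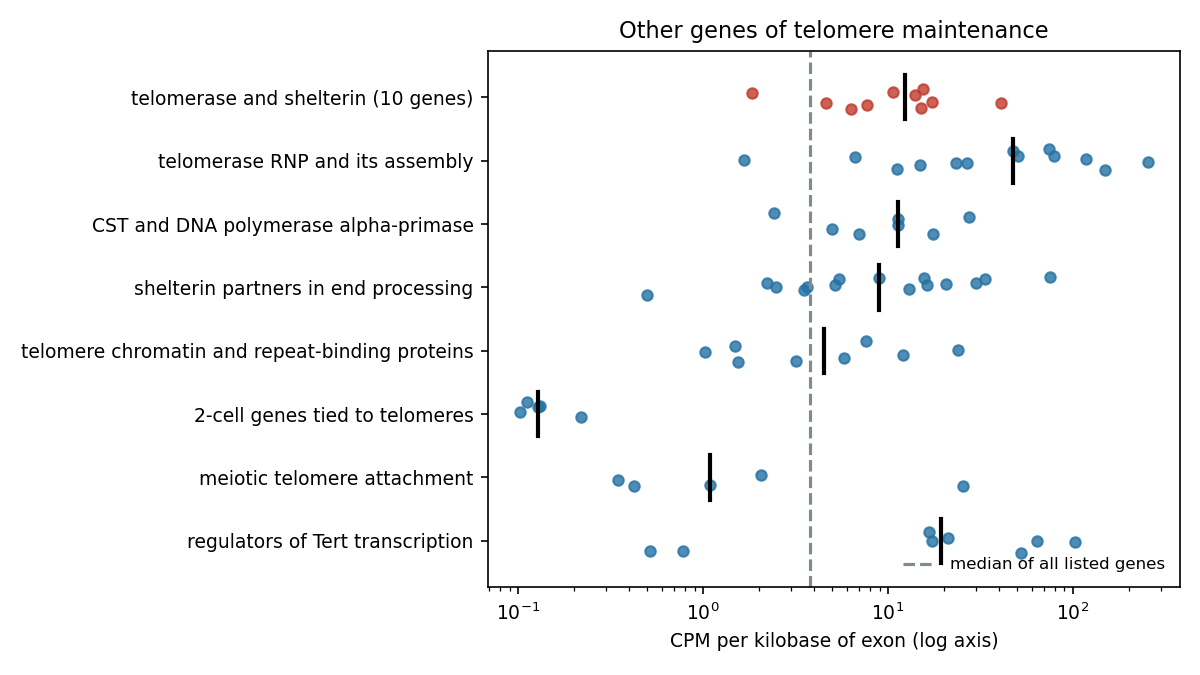
CPM per kilobase of exon (horizontal log axis) of the 10 telomerase and shelterin genes (top row) and of the listed genes of 7 other telomere lists; black bars are medians and the dashed line is the median of all listed genes, 3.80. The list for the telomerase particle and its assembly, with a median of 47.6, lies to the right. The 2-cell list, with a median of 0.128, lies to the left.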

How the data were processed

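Poly(A) RNA of doxycycline-treated pSM44 mouse embryonic stem cells was measured in 1 group of 2 libraries. The deposited values were raw counts, 1 number per symbol, and no symbol had fewer than 1. The submitters' processing notes name the build GRCm38.p6 and the tools featureCounts (Subread 1.6.4), HISAT2, Trimmomatic 0.38 and SAMtools. They do not give the annotation, the strand setting or the features counted. The table's row order tracked counts divided by gene span (rho 0.9999) more closely than counts divided by exon length (rho 0.920). Whether reads in introns were counted was not tested. Levels per kilobase of exon take all counts as exonic.

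The counts were scaled by their total to CPM and divided by union exon length from GENCODE M21, which 15052 genes had. Single counts have exact Poisson 95% intervals and ratios exact conditional binomial ones. The Poisson interval extends about 6.81% of the count to either side for Wrap53 and 20.4% for Pot1b. Functions were tested on simulated counts. No test between groups was possible with 1 column.

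The members and gene lists were chosen with earlier results of these data known. Named genes were all members, the 3 highest per kilobase and the lowest of each list, and unlisted ones, plus cell type markers and genes whose exons overlap a member. Counts or levels are given for some further list genes that the text sets beside a member or another named gene. Promoter windows are from RefSeq (GRCm38.p6), which held 9 of the 10 members. Alternatives were other minimums, pseudocounts, lengths and totals. Lengths of the longest protein-coding transcript, lengths outside other genes' spans, and the median without Acd and Tinf2 were added after the data were seen. The tools were Biopython 1.88, scipy 1.17.1, matplotlib 3.10.9, pandas 2.3.3 and numpy 2.4.6 under Python 3.11.15.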

Additional observations from a re-analysis of the deposited data

How the results depend on the processing

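All 10 genes remained at or above the minimum with a minimum of CPM 0.5, CPM 5 or 10 counts. The difference of medians of 1.50 between these genes and all listed genes kept its sign under each alternative run. It was 0.78 against genes at CPM 1 or more and 1.70 without Acd and Tinf2, and stayed between 1.46 and 1.55 with a pseudocount of 0.1, per kilobase of exon and among overlap-free genes. The ratio of Terf1 over Terf2 turned from 0.869 to 1.12 with coding length and to 1.02 with the longest protein-coding transcript, by construction of the lengths. The ratio of Pot1a over Pot1b was 5.66 with coding length and in raw counts and 6.33 with the longest protein-coding transcript, against 3.44 over all exons. Levels per kilobase moved beyond counting error for all 10 genes under those lengths and for 2 genes, Acd and Tinf2, with lengths free of other genes. Leaving the 20 highest genes out of the total raised every level by the same factor, which changes no order or ratio. The rise went beyond the counting interval for 4 of 10 genes, those with the most counts and so the narrowest intervals. No paired analysis was possible because the counts have 1 column and no second group, and for the same reason no library could be left out. With 1 column, differences between genes are limited by counting error and by the choice of length, and differences between the libraries were not measured.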
